A study of Homo sapiens with 18 samples.

Results

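The knockdown of KLF5 under androgen was followed here in 6 RNA-seq libraries of LNCaP, 3 from cells given siRNA against KLF5 and R1881 (the columns labelled 10, 11 and 12) and 3 from cells given control siRNA and R1881 (the columns labelled 4, 5 and 6). They are 6 of the 17 libraries of the study that were analysed. The labels define the groups, and the comparison was chosen with earlier results of these data known. LNCaP is a prostate carcinoma line from a lymph node metastasis that responds to androgen, and R1881 is a synthetic androgen. All 6 samples had 48 h in 5% charcoal-stripped serum, which is depleted of steroids, and then 24 h with 10 nM R1881. Vehicle in the rest of the study was 96% ethanol. The further groups used below were siKLF5 with vehicle (2 libraries; replicate 1 was not analysed here), siNFYA with R1881 (3), siNFYA with vehicle (3) and control siRNA with vehicle (3). NFYA is the DNA-binding subunit of the CCAAT-box factor NF-Y, and siNFYA served as a second siRNA treatment. The study set out to find transcription factors that regulate metabolism in prostate cancer cells. It used 1 cell line, and each siRNA was a pool whose number of sequences is not given in the labels, and the labels do not say whether replicates came from separate cultures, so p-values measure the spread between these samples, which may be technical.

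KLF5 is a zinc-finger transcription factor of the KLF and SP family, whose members bind GC-rich and CACCC-type elements in promoters and enhancers. In the prostate it is best known in basal progenitor cells, and in luminal tumour cells it has been linked to the androgen response and to lipid synthesis. In luminal cells androgen raises secretory genes such as KLK3 (prostate-specific antigen), genes of lipid synthesis and the secretory machinery, and lowers other genes.

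The siKLF5 libraries with R1881 held 4582804 to 5737908 estimated counts, and the control siRNA libraries with R1881 held 5581124 to 5776649. Levels are given in CPM, counts scaled to a common library size after TMM scaling, a scaling that matches the bulk of genes between libraries. Of 23 luminal markers, GATA3 and KRT7 had at most 3 counts in any of the 6 libraries. The whole luminal list summed to 16280 to 16460 unscaled CPM with siKLF5 and 16990 to 17380 with control siRNA. KRT8, a luminal keratin, had 3795 to 3890 CPM with siKLF5 and 4004 to 4085 CPM with control siRNA. Of 12 basal markers, TP63, KRT5 and KRT17 had no count in any of the 6 libraries, and the whole list summed to 54.4 to 62.4 unscaled CPM with siKLF5 and 54.4 to 67.7 with control siRNA. Of 13 neuroendocrine and neuronal markers, 5 had no count, CHGB and INSM1 among them, and the list summed to 39.0 to 40.7 unscaled CPM with siKLF5 and 40.9 to 47.1 with control siRNA. Of 11 blood and endothelial markers, 4 had no count, CD3E and HBB among them. The blood and endothelial list summed to 8.37 to 12.7 unscaled CPM with siKLF5 and 9.26 to 11.3 with control siRNA. Of 18 stromal and mesenchymal markers, 2 had no count, DCN and CDH2. The stromal list summed to 225 to 272.7 unscaled CPM with siKLF5 and 198.4 to 220.2 with control siRNA, with no overlap. FN1 belongs to the stromal list and is given below. The first principal component, 27.0% of the variance, separated the 3 siKLF5 libraries from the 3 controls, and the second, 20.9%, set siKLF5 replicate 3 apart from the other siKLF5 libraries.

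KLF5 itself (ENSG00000102554, chr13:73054976-73077542, plus strand, GRCh38 as annotated in GENCODE v29) was lower in all 3 siKLF5 libraries. It had 11.8, 11.4 and 15.2 CPM with siKLF5 and R1881, from 59, 61 and 65 counts, and 27.7, 25.1 and 31.6 CPM with control siRNA and R1881, from 148, 135 and 164 counts. The groups did not overlap, and the highest siKLF5 library lay well under the lowest control. KLF5 fell by 54.8%, a log2 fold change of -1.15 (SE 0.163, edgeR quasi-likelihood test with Benjamini-Hochberg adjustment, adjusted p = 0.000228). In siNFYA cells with R1881 it had 22.3, 27.9 and 29.8 CPM, and the direct test of siKLF5 against siNFYA gave -1.07 on the log2 scale (SE 0.167, edgeR adjusted p = 0.00031). The libraries are of bulk cells, so fewer cells with KLF5 and less KLF5 RNA per cell cannot be told apart. On the deposited TPM values, which correct for transcript length, the same contrast was -0.14 (log2 of TPM plus 1, limma) and did not pass, because siKLF5 replicate 2 had 1 count on KLF5-202, a transcript of 130 bases, which carried 35.5 of its 40.1 TPM.

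**Figure D1:**
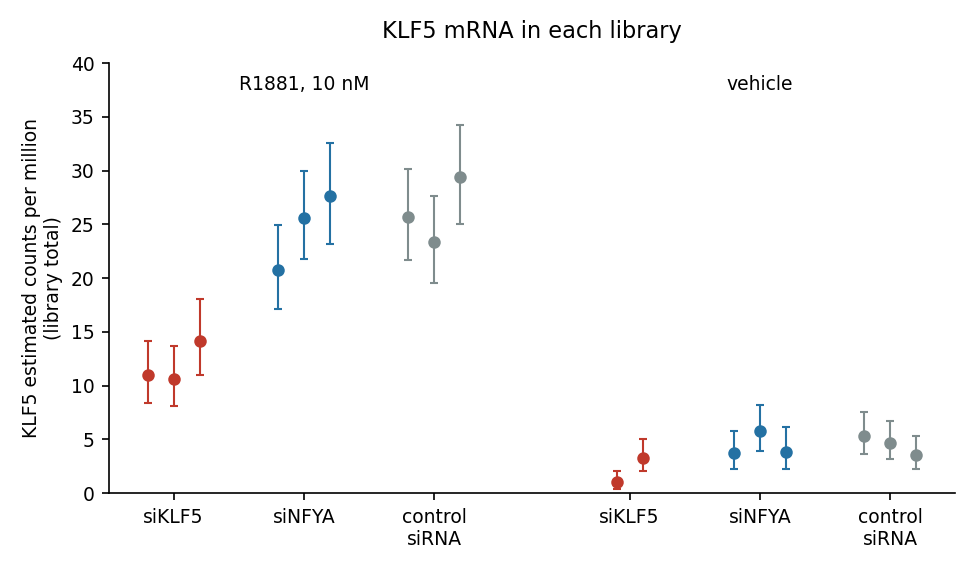
KLF5 in unscaled CPM (counts over the library total, without TMM scaling) in each of 17 libraries, with 95% Poisson intervals that cover counting error only. The 3 siKLF5 libraries with R1881 lie between 10.6 and 14.2 CPM, below the siNFYA libraries (20.8 to 27.6) and the control libraries (23.4 to 29.4) with R1881, and every library with vehicle lies at or below 5.81.

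Of the 5 KLF5 transcripts in the annotation, the protein-coding KLF5-201 held most of the counts. It had 43.6, 60 and 43.7 estimated counts with siKLF5 and R1881, against 142, 115 and 109 with control siRNA and R1881. The other protein-coding form, KLF5-205, had 14.5, 0 and 21.3 counts with siKLF5 and 5.88, 14.4 and 54.7 counts with control siRNA, and its groups overlapped. KLF5 is also a gene of the androgen response in these cells: in libraries that share none with the contrast above, siNFYA cells, it was higher with R1881 than with vehicle by 2.67 on the log2 scale (edgeR adjusted p = 1.01e-11). In vehicle it had 0.929 and 3.03 CPM in the libraries labelled siKLF5 replicates 2 and 3, and 4.92, 4.31 and 3.27 CPM with control siRNA, a log2 difference of -1.08 (SE 0.346, edgeR adjusted p = 0.149). The library labelled siKLF5 vehicle replicate 3, with 22 counts, was close to the lowest control, also with 22 counts. Without it the difference was -2.14 (adjusted p = 0.0254), and without replicate 2 it was -0.46 (adjusted p = 0.551), fits that leave 1 siKLF5 library, assumed to vary like the other groups. With no filter on low counts it was -1.09 (adjusted p = 0.017).

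The remaining family members did not pass. Of 25 KLF and SP genes, 18 had enough counts to be tested, KLF5 fell and 0 rose, against 0.55% of all 12733 genes tested that fell and 0.832% that rose. The median log2 difference of the 18 was -0.04, beside 0.0002 over all genes. KLF6, a tumour suppressor in prostate, had a log2 difference of 0.05 (SE 0.0985), KLF9, a glucocorticoid- and androgen-responsive member, -0.12 (SE 0.0649), KLF4, a regulator of epithelial differentiation, -0.09 (SE 0.138), and SP1, the general GC-box factor, 0.05 (SE 0.0566). KLF2, known from endothelium, had 1.203, 1.499 and 1.404 CPM with siKLF5 and 2.62, 2.05 and 2.51 CPM with control siRNA, a log2 difference of -0.79 (SE 0.388, adjusted p = 0.407). The other 12 ran from -0.29 (KLF7) to 1.04 (KLF8, adjusted p = 0.484) on the log2 scale.

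Across the transcriptome, 70 genes fell and 106 rose with siKLF5 in R1881, 1.38% of 12733 tested. The falls were small: the median was -0.24 on the log2 scale, 49 of 70 were under 0.3, and KLF5 was the only protein-coding gene among the 2 that fell by at least 2-fold, the other being the pseudogene CU633906.4. The rises had a median of 0.59, and 23 of 106 were at least 2-fold. All 70 falls, and every rise but FN1, had every siKLF5 library on 1 side of every control, as did 9.55% of all genes on the lower side and 9.36% on the higher side. At the threshold, ELMOD2 was the last fall inside (-0.22, adjusted p = 0.0495) and MB the first outside (-0.43, adjusted p = 0.0512), TBC1D10C was the last rise inside (2.08, adjusted p = 0.0492), and DMTF1 the first outside (0.44, adjusted p = 0.0514). With 1 library left out at a time the count of calls ran from 71 to 108. Of the 70 falls 16 passed in all 6 of these fits, and of the 106 rises 36 did.

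**Figure D2:**
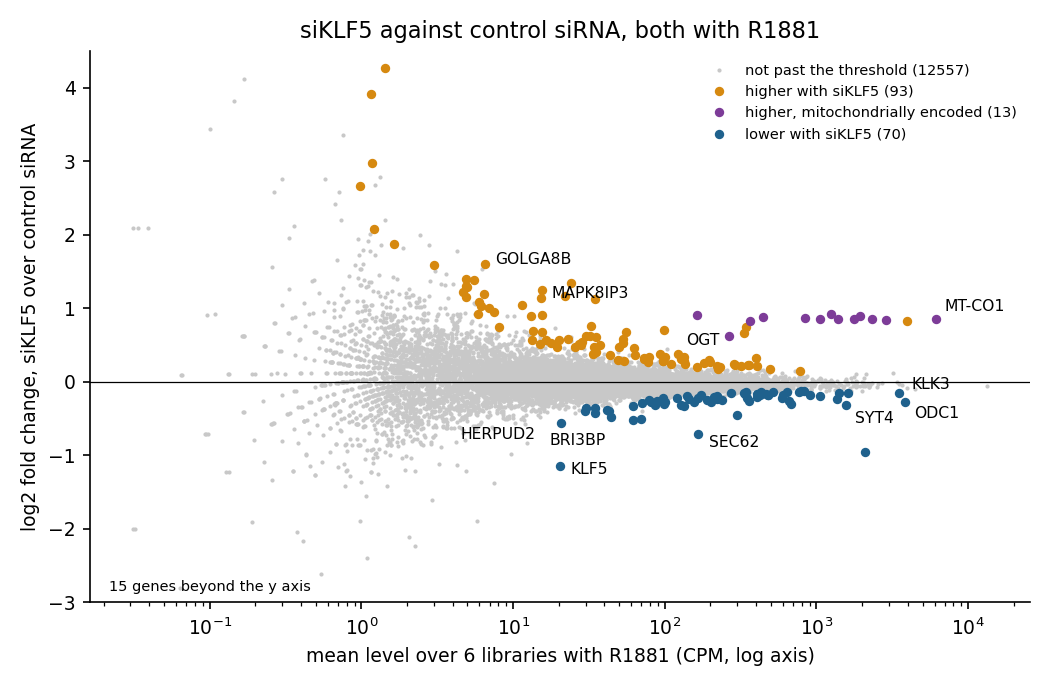
Each point is 1 of 12733 genes, with its mean level over the 6 libraries with R1881 (CPM, log axis) and its log2 fold change, siKLF5 over control siRNA; coloured genes passed at an edgeR adjusted p under 0.05. KLF5 stands lowest of the named genes at -1.15. Of the falls, 49 of 70 are under 0.3 in size, whereas SEC62 lies at -0.71 and the pseudogene AC010970.1, of high level, at -0.96. AC010970.1 varied widely, from 0.12% to 2.85% of counts within the siNFYA vehicle group. It passed in 4 of the 6 fits that leave out 1 library and did not pass when all 17 libraries were fitted. Its difference from siNFYA with R1881 was 0.06 and did not pass. The 13 mitochondrially encoded mRNAs lie between 0.62 and 0.93.

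SEC62 was the gene with the second largest fall among protein-coding genes and the fall with the smallest p. It encodes a subunit of the endoplasmic reticulum (ER) translocon that helps small precursor proteins into the ER and also acts in recovery from ER stress. SEC62 (ENSG00000008952, chr3:169966635-169998373, plus strand) had 136.8, 118.0 and 123.3 CPM with siKLF5 and R1881, against 213.0, 201.7 and 204.5 CPM with control siRNA and R1881. Every siKLF5 library was far below every control, and the fall was 39.0%, -0.71 on the log2 scale (SE 0.0537, edgeR adjusted p = 2.71e-08). Both of its abundant protein-coding transcripts were lower: SEC62-201 had 405, 411 and 354 estimated counts with siKLF5 and 741, 699 and 655 with control siRNA, and SEC62-207 had 265, 212 and 172 with siKLF5 and 390, 380 and 385 with control siRNA. It passed in all 14 alternative fits.

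BRI3BP, an ER and mitochondrial membrane protein that binds BRI3, had 50.75, 50.02 and 51.47 CPM with siKLF5 and 74.4, 71.5 and 71.6 CPM with control siRNA, -0.52 on the log2 scale (SE 0.0622, adjusted p = 2.25e-05). FXYD3, a small regulator of the sodium pump that is common in prostate tumours, had 57.0, 57.3 and 58.7 CPM with siKLF5 and 81.5, 83.8 and 79.5 CPM with control siRNA, -0.50 on the log2 scale (SE 0.0679, adjusted p = 0.000124). HERPUD2, a ubiquitin-like membrane protein related to the ER-associated degradation factor HERPUD1, had 17.6, 15.4 and 17.3 CPM with siKLF5 and 23.8, 28.1 and 21.8 CPM with control siRNA, -0.56 on the log2 scale (SE 0.126, adjusted p = 0.0254). In each of these 3 genes the siKLF5 libraries lay close together and all below the controls. BRI3BP and FXYD3 passed with any 1 library left out, whereas HERPUD2 passed in 1 of those 6 fits.

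The starts of 4 of these genes are shown, with the letters that KLF factors read in capitals. These 4 were the largest R1881 falls among the 9 genes that also fell in vehicle and were lower than with siNFYA. The sequences are from RefSeq, GRCh38.p14, from 250 bases before to 50 after the annotated start, 5′ to 3′ on the gene's strand, and capitals mark CCNCNCCC on either strand, letters that also match GC boxes read by SP factors. SEC62 is at chr3:169966557-169966856 (plus strand), BRI3BP at chr12:124993395-124993694 (plus strand), HERPUD2 at chr7:35695086-35695385 (minus strand) and FXYD3 at chr19:35117750-35118049 (plus strand).
SEC62: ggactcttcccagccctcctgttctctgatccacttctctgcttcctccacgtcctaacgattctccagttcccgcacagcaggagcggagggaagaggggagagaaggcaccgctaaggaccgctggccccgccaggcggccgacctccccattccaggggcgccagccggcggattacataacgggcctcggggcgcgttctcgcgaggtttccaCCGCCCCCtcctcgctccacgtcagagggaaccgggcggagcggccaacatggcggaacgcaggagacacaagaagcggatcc
BRI3BP: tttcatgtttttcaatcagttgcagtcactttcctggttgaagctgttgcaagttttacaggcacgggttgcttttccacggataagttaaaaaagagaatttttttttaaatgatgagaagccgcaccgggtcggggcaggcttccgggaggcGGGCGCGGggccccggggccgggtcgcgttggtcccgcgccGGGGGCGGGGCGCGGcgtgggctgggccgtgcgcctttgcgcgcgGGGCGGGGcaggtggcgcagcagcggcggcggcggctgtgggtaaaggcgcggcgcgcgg
HERPUD2: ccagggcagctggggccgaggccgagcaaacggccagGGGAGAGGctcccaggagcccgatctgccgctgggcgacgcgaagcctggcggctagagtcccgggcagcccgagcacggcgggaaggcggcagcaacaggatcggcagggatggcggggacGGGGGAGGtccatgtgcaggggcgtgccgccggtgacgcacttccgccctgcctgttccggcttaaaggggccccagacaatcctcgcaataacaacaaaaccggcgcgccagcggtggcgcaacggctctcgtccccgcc
FXYD3: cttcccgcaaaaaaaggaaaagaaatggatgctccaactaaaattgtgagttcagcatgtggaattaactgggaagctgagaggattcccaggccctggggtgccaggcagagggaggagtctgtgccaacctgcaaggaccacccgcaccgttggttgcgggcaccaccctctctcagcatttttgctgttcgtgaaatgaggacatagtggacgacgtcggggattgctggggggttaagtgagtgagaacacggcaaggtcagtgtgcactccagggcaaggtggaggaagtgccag
CCNCNCCC, counted on both strands with overlaps, occurs 1 time in the SEC62 window, 5 times in BRI3BP, 2 times in HERPUD2 and 0 times in FXYD3. Among the falls, 58 of 70 genes had an entry and 72 of their 96 promoter windows (75%) held it, beside 57 of 82 windows of the rises (69.5%), 71.6% of the windows of all genes tested and 56.2% of all 35116 windows. The share among the falls was close to that of the genes tested.

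The other largest falls were AGR2, an ER protein disulfide isomerase of mucus-secreting and luminal cells (35.3, 35.0 and 40.2 CPM with siKLF5, 43.5, 51.7 and 58.7 CPM with control siRNA, -0.48 on the log2 scale, SE 0.0991), PLEKHA6, a junction-associated protein (-0.42, SE 0.0901), TNFSF13, the cytokine APRIL (-0.39, SE 0.0782), UGCG, which makes glucosylceramide (-0.39, SE 0.0861), FANCF, a subunit of the Fanconi anaemia core complex (-0.39, SE 0.0958), and ST3GAL4, a sialyltransferase (-0.36, SE 0.0881). These 6 passed in at most 4 of the 6 fits that leave out 1 library. Among genes of high level, SYT4, a synaptotagmin of secretory vesicles, had 1399, 1381 and 1422 CPM with siKLF5 and 1720, 1750 and 1745 CPM with control siRNA, -0.31 on the log2 scale (SE 0.0288, adjusted p = 3.17e-07). TARS, the cytosolic threonyl-tRNA synthetase, had 621.2, 603.5 and 596.6 CPM with siKLF5 and 759.8, 769.0 and 727.8 CPM with control siRNA, -0.31 on the log2 scale (SE 0.0405, adjusted p = 7.85e-05). Neither gene had overlapping groups, and both passed with any 1 library left out.

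Metabolic genes moved little, and those that passed were in a few steps. ODC1, ornithine decarboxylase, the first enzyme of polyamine synthesis, had 3345, 3583 and 3572 CPM with siKLF5 and 4111, 4282 and 4260 CPM with control siRNA, -0.27 on the log2 scale (SE 0.0335, adjusted p = 3.57e-05), and was the only 1 of 14 polyamine genes tested to pass. In fatty acid synthesis and desaturation, 3 of 22 genes fell and 0 rose, with a median of -0.05. FADS2, the delta-6 desaturase, had 1302, 1230 and 1239 CPM with siKLF5 and 1499, 1489 and 1438 CPM with control siRNA, -0.23 on the log2 scale (SE 0.035, adjusted p = 0.000556). SCD, the delta-9 desaturase, had 993.1, 956.6 and 995.5 CPM with siKLF5 and 1128, 1123 and 1117 CPM with control siRNA, -0.19 (SE 0.0303, adjusted p = 0.000769). ACSL1, which activates fatty acids with coenzyme A, was at -0.21 (SE 0.0402, adjusted p = 0.00611). FASN, fatty acid synthase, a target of KLF5 in other cells, had 2810, 2278 and 2480 CPM with siKLF5 and 2760, 2452 and 2553 CPM with control siRNA, and its groups overlapped (-0.04, SE 0.0553).

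In cholesterol synthesis 1 of 24 genes fell, HMGCS1, which makes HMG-CoA (-0.16, SE 0.0403, adjusted p = 0.0423), and the median was -0.07, with 20 of 24 below 0. Of 15 genes of the hexosamine pathway and glycosylation, GALNT7, an enzyme of mucin-type O-glycan synthesis, fell (118.3, 111.3 and 114.2 CPM with siKLF5, 152.3, 135.9 and 138.2 CPM with control siRNA, -0.31 on the log2 scale, SE 0.0532, adjusted p = 0.00209), as did ST6GALNAC1, the sialyl-Tn synthase (-0.25, SE 0.0616, adjusted p = 0.0394), and OGT rose. HMGCS1 and ST6GALNAC1 passed in 0 of the 6 fits that leave out 1 library. None of 25 glycolysis, 28 tricarboxylic acid cycle, 24 fatty acid oxidation, 11 pentose phosphate, 22 serine and one-carbon or 26 nucleotide synthesis genes passed in either direction, nor any of 52 nuclear-encoded subunits of oxidative phosphorylation. At an unadjusted p under 0.05 these lists held 5, 5, 4, 0, 1, 4 and 8 genes in the order given, and with DESeq2 none passed but 1 gene of the tricarboxylic acid cycle, which was lower, but DESeq2 gave no adjusted p for 11, 11, 10, 6, 13, 15 and 20 of them in the same order. Their medians ran from -0.05 (glycolysis and the tricarboxylic acid cycle) to 0.02 (pentose phosphate). In the same order 19, 23, 15, 5, 13, 14 and 34 of their genes were below 0, beside 6351 of all 12733 genes tested.

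Genes of the ER were the list with the most falls. Of 28 genes of ER stress and chaperones, 6 fell and 0 rose, beside 0.55% of all genes tested that fell and 0.832% that rose. A value below 0 was found in 27 of 28, and the median was -0.10. With siKLF5 in vehicle, 0 of the 28 fell and 1 rose, with a median of -0.008. No gene of the list passed in the interaction test given below, so a difference between treatments was not shown. HSPA5 (BiP), the main ER chaperone, had 1529, 1537 and 1536 CPM with siKLF5 and 1729, 1688 and 1678 CPM with control siRNA, -0.15 on the log2 scale (SE 0.0302, adjusted p = 0.0123). PDIA6, a disulfide isomerase, had 528.5, 566.0 and 554.2 CPM with siKLF5 and 638.6, 633.3 and 643.7 CPM with control siRNA, -0.22 on the log2 scale (SE 0.0425, adjusted p = 0.00849). Of the other 4, the disulfide isomerases PDIA3 and PDIA4 were at -0.15 and -0.18, the chaperone HYOU1 at -0.13, and SEC24D, a coat protein of ER-exit vesicles, at -0.16. None of these 6 passed in all 6 fits that leave out 1 library: PDIA6 passed in 5, PDIA3 in 4, HSPA5 in 3, PDIA4 in 1, and HYOU1 and SEC24D in 0. Outside the list, and named after their values were seen, EDEM3 (a mannosidase of ER-associated degradation, -0.23), LMAN1 (a cargo receptor for ER exit, -0.18), DNAJC10 (an ER disulfide reductase, -0.18), ERGIC1 (-0.14) and COPB1 (a coatomer subunit, -0.17) also fell. EDEM3 passed in all 6 fits that leave out 1 library, LMAN1 in 5, DNAJC10 in 4, ERGIC1 in 1 and COPB1 in 0. With siKLF5 in vehicle they were at -0.10, -0.05, 0.03, -0.03 and -0.01 in the same order, and none passed. With R1881 against vehicle in the siNFYA libraries, all 28 genes of the list were higher and passed, with a median of 1.26 on the log2 scale (1.03, and again 28, when scaled by library totals), beside 30.6% of all 12922 genes tested that were higher there (19.0% of 12728 under library totals).

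Androgen-induced genes were nearly level. Of 32 tested, 3 fell and 0 rose, and the median was -0.03. KLK3 had 3317, 3363 and 3261 CPM with siKLF5 and R1881, against 3645, 3777 and 3667 CPM with control siRNA and R1881, -0.16 on the log2 scale (SE 0.0344, adjusted p = 0.0185), with no overlap. PLPP1, a lipid phosphatase, was at -0.17 (SE 0.0368) and TSC22D3 (GILZ), a steroid-induced leucine zipper protein, at -0.29 (SE 0.0688). KLK3 passed in 0, and PLPP1 and TSC22D3 in 1, of the 6 fits that leave out 1 library. At an unadjusted p under 0.05 the list held 9 genes, and its values ran from -0.30, a gene that did not pass, to 0.15. Of the other androgen targets that did not pass, TMPRSS2, a serine protease, was at -0.07 (SE 0.0336), and FKBP5, a co-chaperone of steroid receptors, at -0.02 (SE 0.0359). Among luminal markers 2 of 20 fell, KLK3 and ACPP, prostatic acid phosphatase, which had 127.0, 120.5 and 108.3 CPM with siKLF5 and 155.7, 148.9 and 143.0 CPM with control siRNA (-0.33 on the log2 scale, SE 0.0556, adjusted p = 0.00196). Of 17 androgen-repressed genes 1 passed, IGFBP3, which rose.

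**Figure D3:**
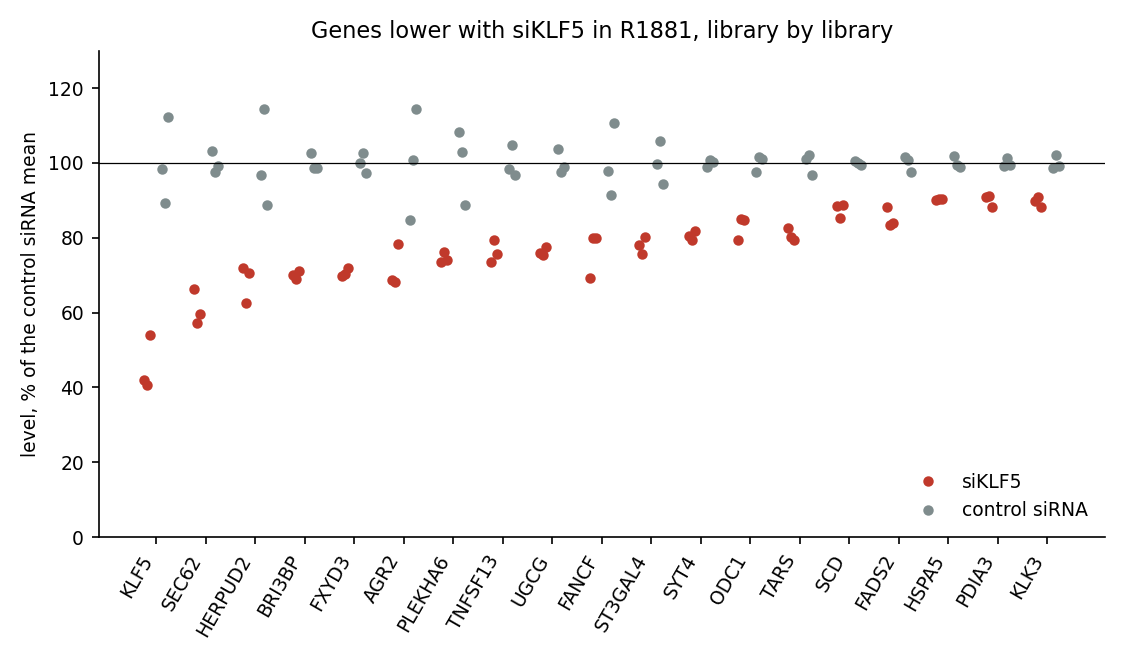
Level in each of 3 siKLF5 and 3 control siRNA libraries with R1881, as a percentage of the control siRNA mean, for the largest falls and the falls of smallest p at high level that are named in the text, and 5 members of the lipid, ER and androgen lists. The groups do not overlap in any of these genes, and the siKLF5 libraries lie lowest for KLF5 and SEC62.

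The rises were led, by p, by RNA of the mitochondrial genome. All 13 mitochondrially encoded mRNAs, which code for subunits of the respiratory chain and the ATP synthase, rose, with a median of 0.86 on the log2 scale and a range from 0.62 (MT-ND3) to 0.93 (MT-ND1). MT-CO1, subunit 1 of cytochrome c oxidase, had 9083, 7736 and 6990 CPM with siKLF5 and R1881, against 4598, 4237 and 4401 CPM with control siRNA and R1881, 0.85 on the log2 scale (SE 0.0655, edgeR adjusted p = 3.32e-08). MT-ATP6, a subunit of the ATP synthase, had 1182, 1101 and 942.6 CPM with siKLF5 and 615.4, 564.1 and 597.6 CPM with control siRNA, 0.86 (SE 0.0628, adjusted p = 2.1e-08). MT-CO2 and MT-CO3, further subunits of cytochrome c oxidase, were at 0.85 and 0.86. The nuclear copies MTRNR2L1, MTRNR2L6, MTRNR2L8, MTRNR2L11, MTRNR2L12 and MTATP6P1 also passed, but they are near-identical to mitochondrial RNA and the counts cannot be assigned between them with certainty. The nuclear-encoded partners in oxidative phosphorylation had a median of -0.02. All 13 passed with any 1 library left out.

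The rise of mitochondrial mRNA showed in the share of counts of every siKLF5 library with R1881, and siNFYA libraries had a similar share. Whether it arose in the cells or in the making of the libraries was not tested. The 13 mRNAs took 2.82%, 2.46% and 2.20% of counts with siKLF5 and R1881, against 1.44%, 1.33% and 1.36% with control siRNA and R1881. They took 2.54% to 2.62% with siNFYA and R1881, and in the direct test of siKLF5 against siNFYA 0 of 13 passed, with a median of -0.05. In vehicle, 11 of 13 passed higher with siKLF5, with a median of 0.50, beside 0.77% of all genes. Without the library labelled siKLF5 vehicle replicate 3, 5 of 13 passed (median 0.34), and without replicate 2, 13 of 13 (median 0.63). Transcripts annotated as retaining an intron took 2.28% to 2.43% of counts with siKLF5 and R1881, 2.56% to 2.66% with siNFYA and R1881, and 1.96% to 1.98% with control siRNA and R1881. The part of these library-wide shares in the other changes was not tested. Fitted without the mitochondrially encoded genes, 90 genes rose and 67 fell.

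**Figure D4:**
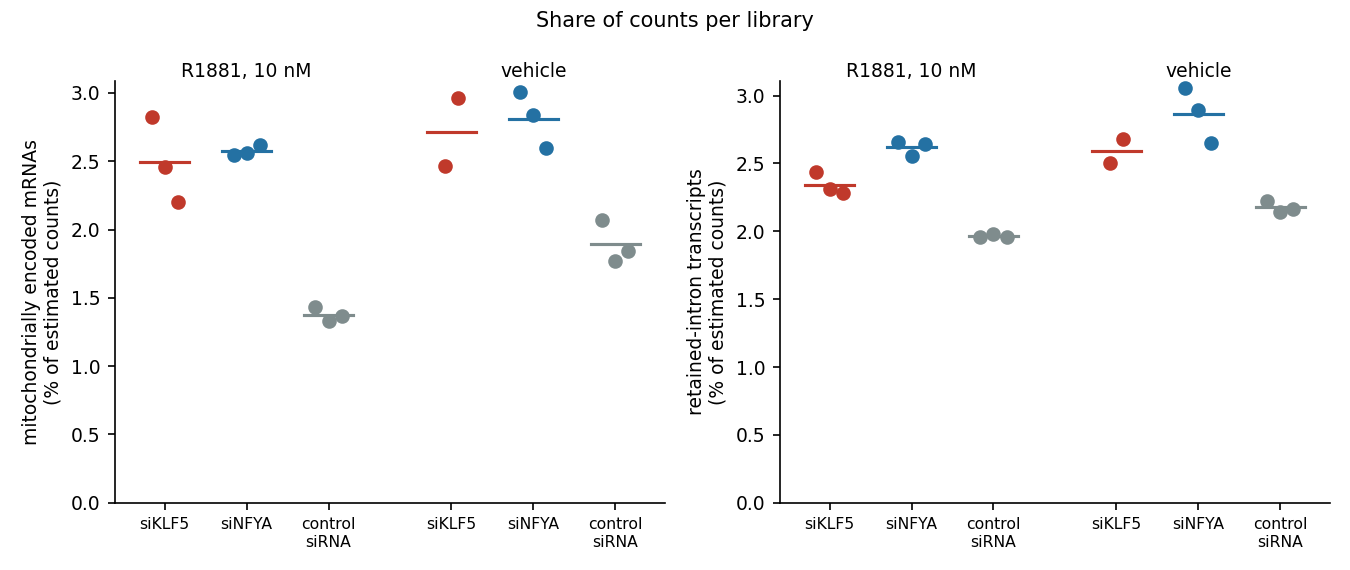
Share of estimated counts on the 13 mitochondrially encoded mRNAs (left) and on transcripts annotated as retaining an intron (right), in percent, for each of 17 libraries, with group means as lines. With R1881, the 3 siKLF5 libraries (2.20% to 2.82% and 2.28% to 2.43%) and the 3 siNFYA libraries lie above the 3 control siRNA libraries (1.33% to 1.44% and 1.96% to 1.98%) in both shares.

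The largest rises among protein-coding genes of at least 5 CPM in the siKLF5 group were in genes of low level, many of them with near-identical copies. GOLGA8B, a golgin of a duplicated family, had 12.0, 8.24 and 9.12 CPM with siKLF5 and 4.12, 2.61 and 2.89 CPM with control siRNA, 1.60 on the log2 scale (SE 0.265, adjusted p = 0.00144). Its copy GOLGA8A (1.38), and NPIPB4 (1.30), NPIPB12 (1.05) and RGPD5 (1.16), belong to families whose reads can be split between copies, so the gene that changed is uncertain in each, and the same holds for U2AF1 (1.12), a splicing factor with a copy on the same chromosome. MAPK8IP3 (JIP3), a scaffold of JNK signalling and axonal transport, had 26.1, 20.4 and 15.9 CPM with siKLF5 and 10.1, 10.1 and 8.49 CPM with control siRNA, 1.13 (SE 0.177, adjusted p = 0.000769). PABPC1L, a poly(A)-binding protein of oocytes, was at 1.40 (SE 0.308), HSF4, a heat shock factor of the lens, at 1.22 (SE 0.281), PCDHGA5, a clustered protocadherin, at 1.19 (SE 0.274), and PILRB, an activating receptor, at 0.95 (SE 0.235). The PCDHG genes share exons and PILRB overlaps neighbouring transcripts, so these counts are uncertain too. Of the genes in this paragraph, GOLGA8B and MAPK8IP3 passed with any 1 library left out, and the others in at most 3 of 6 such fits.

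RNA-processing genes were the list of nuclear genes with the most rises. Of 32 splicing regulators 5 rose and 0 fell, beside 0.832% of all genes tested that rose and 0.55% that fell. A value above 0 was found in 27, and the median was 0.12. In the direct test of siKLF5 against siNFYA with R1881, 0 of the 32 were higher and 1 was lower, with a median of -0.01. With siKLF5 in vehicle 1 rose and 0 fell, with a median of 0.08. SRSF5, a serine- and arginine-rich splicing factor, had 151.0, 142.9 and 130.3 CPM with siKLF5 and 105.8, 113.7 and 124.1 CPM with control siRNA, 0.31 on the log2 scale (SE 0.066, adjusted p = 0.0158). HNRNPH1, a G-run binding splicing factor, was at 0.22, SRSF4 at 0.28 and SRSF6 at 0.18, and U2AF1 is given above. Each of these 5 passed in at most 2 of the 6 fits that leave out 1 library. Outside the list, and named after their values were seen, CCNL1 and CCNL2, cyclins that act with splicing kinases, rose by 0.63 and 0.62. CCNL1 passed in all 6 fits that leave out 1 library, and CCNL2 in 2 of them. Within CCNL2, the share of counts on intron-retaining transcripts was 35.8%, 44.1% and 42.5% with siKLF5 and 26.0%, 22.3% and 23.9% with control siRNA. Of 65 rises with an annotated intron-retaining transcript (mitochondrial genes and copies left out), 52 had a larger such share with siKLF5 (80%), beside 62.5% of 6983 genes tested that have one and 26 of 37 falls (70.3%). The median share was 11.0% with siKLF5 and 4.16% with control siRNA in the rises, and 1.62% with siKLF5 and 0.952% with control siRNA over all such genes. The rises were called in the same libraries, on gene counts that include these transcripts. A larger share is therefore partly built into the choice of the rises.

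OGT, which attaches N-acetylglucosamine to nuclear and cytosolic proteins, had 143.6, 131.1 and 137.8 CPM with siKLF5 and 103.6, 104.8 and 108.2 CPM with control siRNA, 0.38 on the log2 scale (SE 0.0529, edgeR adjusted p = 0.000172). Its intron-retaining share was 30.5%, 28.96% and 27.68% with siKLF5 and 10.3%, 10.7% and 10.8% with control siRNA, with no overlap. IGFBP3, a secreted binding protein for insulin-like growth factors, had 63.8, 63.5 and 59.4 CPM with siKLF5 and 43.3, 42.8 and 44.0 CPM with control siRNA, 0.52 (SE 0.0809, adjusted p = 0.000668). VEGFA, the angiogenic growth factor, rose by 0.20 (SE 0.0454, adjusted p = 0.0287) and was the only 1 of 20 hypoxia genes to pass. FN1, fibronectin, had 244.3, 187.9 and 216.4 CPM with siKLF5 and 190.7, 166.2 and 172.1 CPM with control siRNA (0.29, SE 0.0719, adjusted p = 0.0423), its groups overlapped, and it was the only 1 of 9 stromal and mesenchymal markers tested to pass. Of 28 genes of the ATF4 amino acid response, SLC38A2, a glutamine transporter, rose (0.14, SE 0.0329, adjusted p = 0.0301) and GDF15, a stress cytokine, fell (-0.25, SE 0.052, adjusted p = 0.0123). OGT and IGFBP3 passed with any 1 library left out, VEGFA, SLC38A2, FN1 and GDF15 in at most 3 of 6 such fits.

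Proliferation genes gave no call. Of 40 G2/M genes 0 passed, 9 had an unadjusted p under 0.05, 35 were above 0, and the median was 0.14, with MKI67, a proliferation marker, at 0.41 (SE 0.122, adjusted p = 0.112) and CDK1 at -0.07 (SE 0.0679). Of 40 genes of DNA replication and S phase 0 passed (median 0.05), as did 0 of 27 p53 targets (median -0.04) and 0 of 31 interferon response genes (median -0.01), the last with 1 gene at an unadjusted p under 0.05. Among 10 tested genes known as KLF5 targets in other cells, which include FASN, CCND1 and CDK1, 0 passed and 1 had an unadjusted p under 0.05, with a median of 0.01. CCND1, cyclin D1, had 338.8, 319.1 and 317.7 CPM with siKLF5 and 344.3, 340.6 and 340.8 CPM with control siRNA. Among 13 genes of the siRNA machinery 0 passed, 1 at an unadjusted p under 0.05. With edgeR 0 also passed of 78 cytosolic ribosomal protein genes (median -0.04, 7 at an unadjusted p under 0.05), 21 genes of epithelial adhesion (-0.07, 6), 17 heat shock proteins (-0.03, 1), 11 immediate early genes (-0.01, 1), 3 NF-Y subunits (-0.02, 0), and of the 3 basal (-0.20, 1), 4 neuroendocrine (-0.05, 0) and 2 blood and endothelial markers (-0.25, 0) with enough counts. Values below 0 were found in 63 of the 78 ribosomal protein genes and 18 of the 21 adhesion genes, beside 6351 of all 12733 genes tested. Of 21 growth factors and receptors 1 passed, IGFBP3, with a median of -0.11. DESeq2 called none of the genes in the lists of this paragraph, though it gave no adjusted p for many of them, 39 of the 40 G2/M genes among them.

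The libraries without R1881 share none with the comparison above and were used to follow its genes. With siKLF5 against control siRNA in vehicle, 98 genes rose (0.77%) and 70 fell (0.55%), 1.32% of 12733 in all. Of the 70 genes that fell in R1881, 13 fell and 0 rose in vehicle, 63 were below 0, and the median was -0.08, beside -0.006 over all genes. Of the 106 that rose in R1881, 45 rose and 0 fell in vehicle, 94 were above 0, and the median was 0.40. Without the library labelled siKLF5 vehicle replicate 3, 12 of the falls and 13 of the rises passed in the same direction, and without replicate 2, 15 and 50 did. Besides SEC62, the vehicle falls included HERPUD2 (-0.67), FXYD3 (-0.51), BRI3BP (-0.46), SYT4 (-0.35) and TARS (-0.27). SEC62 had 87.6 and 95.6 CPM with siKLF5 and vehicle, against 151.0, 146.0 and 155.5 CPM with control siRNA and vehicle, -0.72 on the log2 scale (SE 0.0601, edgeR adjusted p = 2.86e-07), a difference of the same size as with R1881.

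Androgen and the knockdown were also tested together. The interaction, the siKLF5 effect with R1881 minus that with vehicle, passed for 2 of 12733 genes (0.0157%), KLK3 and the readthrough gene ATP6V1G2-DDX39B, and 854 had an unadjusted p under 0.05. KLK3 had 33.2 and 35.8 CPM with siKLF5 and vehicle, against 65.5, 54.6 and 58.5 CPM with control siRNA and vehicle, so that the siKLF5 difference was -0.79 on the log2 scale in vehicle (SE 0.0701, adjusted p = 6.59e-07) and -0.16 with R1881. ODC1, FADS2 and SCD had vehicle differences of -0.06, -0.003 and -0.05 that did not pass, but their interaction did not pass either, so a difference between treatments was not shown for them. Of the 70 falls, 54 were higher and 11 lower with R1881 than with vehicle in siNFYA libraries, beside 30.6% higher and 30.1% lower of 12922 genes. Scaled by library totals the same figures were 48 and 12, beside 19.0% higher and 48.6% lower of the 12728 genes measured in both comparisons, a scaling that moved the median of all genes to -0.24. The falls were called in libraries with R1881, at a median level of 223.1 CPM, beside 51.2 CPM in the rises. Among the 106 rises, called in the same libraries, 30 were higher and 28 lower with R1881 than with vehicle in siNFYA libraries. Scaled by library totals, 28 of these rises were higher and 48 lower. Small differences can pass more readily at high level, and whether this shaped the counts among the falls was not tested. The shares of all genes are not matched for level, and no link to androgen was tested. ODC1 was higher with R1881 there by 3.27 on the log2 scale, LMAN1 by 1.75 and SEC62 by 0.64, whereas BRI3BP was lower, at -0.56.

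The siNFYA libraries show how far the changes were shared by another siRNA. In vehicle, where no library is shared with the R1881 comparison, siNFYA against control siRNA gave 780 rises (6.04%) and 806 falls (6.24%) of 12922. Of the 106 genes that rose with siKLF5 in R1881, 68 rose and 8 fell there, and of the 70 that fell, 17 fell and 4 rose. With the mitochondrial genes and their copies left out, 50 of 87 rises rose there. SEC62 (-0.13), BRI3BP (0.08), HERPUD2 (-0.19) and FXYD3 (-0.11) did not pass with siNFYA in vehicle, and SYT4 (-0.16) did. Among the rises, OGT (0.44), MAPK8IP3 (1.29), GOLGA8B (1.77), CCNL1 (0.81) and CCNL2 (0.89) rose with siNFYA.

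In the direct test with R1881, siKLF5 against siNFYA, 301 genes were higher (2.33%) and 193 lower (1.49%), 3.82% of 12922 in all. This test uses the same siKLF5 libraries, so it is not independent of the first. Of the 70 falls, 34 were also lower than with siNFYA and 2 were higher, ACPP and AIDA. SEC62 had 136.7, 118.1 and 123.3 CPM with siKLF5 and 205.2, 219.6 and 216.3 CPM with siNFYA, scaled over 17 libraries, -0.76 on the log2 scale (SE 0.0524, edgeR adjusted p = 1.03e-09). ODC1 (-0.45), GALNT7 (-0.44), TARS (-0.23), HSPA5 (-0.21), SYT4 (-0.20) and SCD (-0.14) were lower with siKLF5 than with siNFYA. With siNFYA against control siRNA in R1881, ODC1 (0.17, edgeR adjusted p = 0.00403) and KLK3 (0.17, edgeR adjusted p = 0.0278) were higher. Part of the difference of ODC1 and KLK3 from siNFYA therefore lay in the siNFYA libraries. SYT4 was lower there (-0.12, edgeR adjusted p = 0.0282), and GALNT7, TARS, HSPA5 and SCD did not pass. Of the 106 rises, 12 were higher and 9 lower than with siNFYA, with a median of -0.03. FN1 (0.46), HMGB2, a chromatin protein of dividing cells (0.41), ATAD2, a bromodomain ATPase (0.29), and MERTK, a receptor tyrosine kinase (0.32), were among the 12. OGT (-0.20), LENG8 (-0.45) and CCNL2 (-0.43) were among the 9. Against control siRNA with R1881, ATAD2 passed in 4 of the 6 fits that leave out 1 library, HMGB2 in 2, and MERTK and LENG8 in 1. In all, 9 genes fell in R1881 and in vehicle and were lower than with siNFYA. Among them were SEC62, HERPUD2, BRI3BP, FXYD3, SYT4, TARS, PLPP1 and KLK3.

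**Figure D5:**
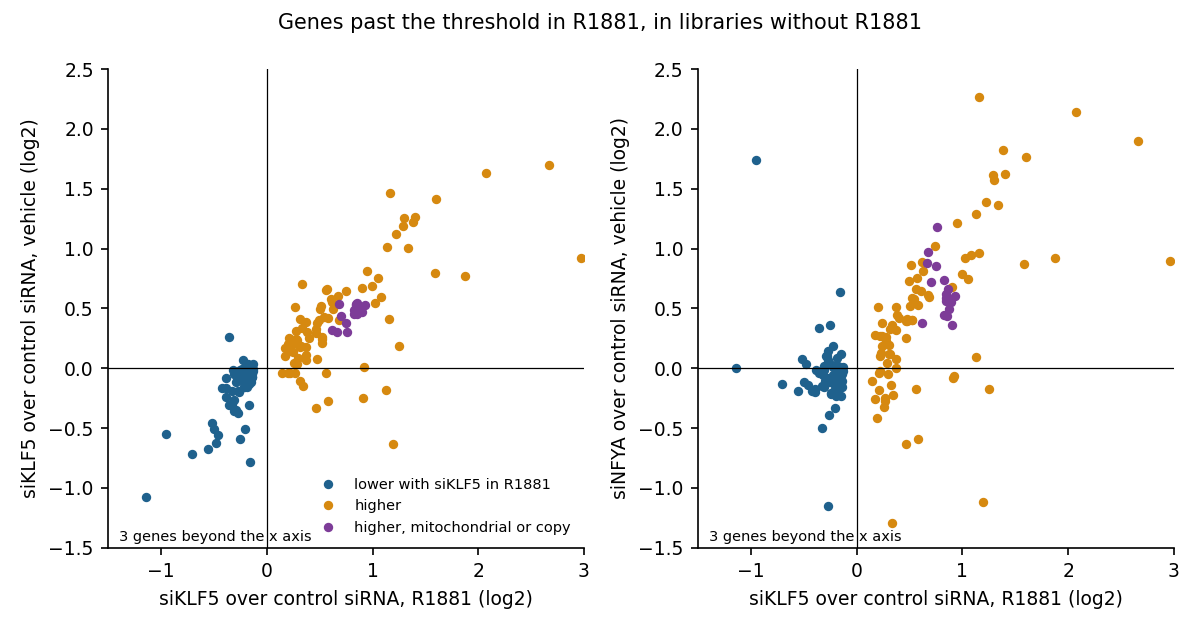
The 176 genes past the threshold with siKLF5 in R1881 (x axis, log2 fold change over control siRNA), against their log2 fold change with siKLF5 (left) and with siNFYA (right), both over control siRNA in vehicle, in libraries that share none with the x axis; 3 genes lie beyond the x axis. Of the falls, 63 of 70 lie below 0 on the left and 48 of 70 on the right, and of the rises 94 of 106 lie above 0 on the left and 86 of 106 on the right.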

How the data were processed

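Per the labels' protocols, the RNeasy plus kit gave the RNA and the NEBNext Ultra II Directional kit, which keeps strand, the libraries. Tools named in the submitters' processing notes are kallisto, Trimmomatic, FastQC and DESeq2, with the build GRCh38; no version was found there. The authors deposited estimated counts by gene, not whole numbers, and in separate tables TPM with estimated counts by transcript. Samples were grouped by their labels; replicate numbers are only names.

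The counts were rounded. Low genes were dropped by filterByExpr, TMM set the scale, and edgeR 4.0.16 (R 4.3.3) ran its quasi-likelihood test over 11 libraries of the control and siKLF5 groups, or 17 where siNFYA entered, with a coefficient per group. Benjamini-Hochberg adjustment covered every gene tested, with a threshold of 0.05. Alternatives were DESeq2 1.42.0, limma 3.58.1 on log2(TPM + 1) or log2(TPM + 0.1), other scalings and samples, no filter, and each library left out. The scripts were tested on simulated data. The chi-square per degree of freedom between replicates was 1.32 to 1.94, above counting noise. A value above counting noise does not show whether replicates came from separate cultures. Each labelled library was treated as a sample.

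The samples compared and the 37 gene lists were chosen with earlier results of these data known. Named genes are KLF5 and its family, the 12 largest rises and falls (protein-coding, at least 5 CPM in the higher group, groups not overlapping), the 5 of smallest p each way with at least 100 CPM, and up to 4 per list. Tables were made with Python 3.11.15 and pandas 2.3.3. Some genes that the rule names, and 1 list, are not reported here.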

Additional observations from a re-analysis of the deposited data

Results flagged for a closer look

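The siKLF5 difference of KLK3 depended on androgen in the interaction test: it was larger in vehicle, and the interaction was 0.63 on the log2 scale (SE 0.0783, edgeR adjusted p = 0.000752), with 2 siKLF5 libraries in vehicle. It passed in all 15 other fits of that test, at 0.56 to 0.69. The readthrough gene ATP6V1G2-DDX39B, which shares its sequence with DDX39B so that its counts are uncertain, had an interaction of 0.86 (SE 0.134, edgeR adjusted p = 0.012): it had 66.6, 63.9 and 59.0 CPM with siKLF5 and R1881 against 47.2, 39.3 and 40.3 CPM with control siRNA and R1881, and 69.2 and 54.0 CPM with siKLF5 and vehicle against 80.4, 69.0 and 74.7 CPM with control siRNA and vehicle. Its adjusted p was 0.0624 without siKLF5 R1881 replicate 1, 0.0728 without control R1881 replicate 3 and 0.062 without control vehicle replicate 1.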

How the results depend on the processing

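For siKLF5 against control siRNA in R1881, the count of calls was 314 (177 higher, 137 lower) when only the 2 groups were fitted, 388 with no filter on low counts, 91 (34 higher, 57 lower) with DESeq2, and 36 with limma on log2(TPM + 1) and also 36 on log2(TPM + 0.1), beside 176 (106 higher, 70 lower). It was 71 without siKLF5 R1881 replicate 1 and at most 108, without siKLF5 R1881 replicate 3. KLF5 itself ran from -1.27 to -1.05 with 1 library left out, and was -0.14 and -0.19, not passing, in the limma fits on log2(TPM + 1) and log2(TPM + 0.1), where the count on KLF5-202 sets the value. DESeq2 gave no adjusted p for 21 of the falls and 68 of the rises. No call changed direction in any alternative.

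In vehicle, the count for siKLF5 was 79 with DESeq2 and 409 with no filter, beside 168, and ran from 70 without siKLF5 vehicle replicate 3 to 434 without siKLF5 vehicle replicate 2. The interaction gave 8 calls with DESeq2 and 106 with no filter, beside 2, and from 1 to 51 with 1 library left out, the highest without siKLF5 vehicle replicate 3. Against siNFYA it was 293 with DESeq2, beside 494, and 241 to 398 with 1 library left out. For siNFYA in vehicle it was 947 with DESeq2, beside 1586, and 1002 to 1447 with 1 library left out, the lowest without control vehicle replicate 2. R1881 against vehicle with siNFYA gave 7251 to 7479 calls with 1 library left out, beside 7840. Causes not named here were not tested. No paired analysis was possible because no replicate number in the labels is used by 2 groups.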
